A study of Homo sapiens with 12 samples.

Results

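MYC, its dimerization partners and antagonists MAX, MXD1, MXD3, MXD4, MNT and MLX, the leukaemia transcription factor MYB, and MIR17HG, the host gene of the microRNA 17-92 cluster, were followed across 12 Affymetrix arrays. The 9 genes were taken by name, each was represented by 1 array row, and they are 9 of 18417 genes measured. Each of 4 groups held 3 arrays. Treated KA was K562/ADR, a subline of K562 made resistant with adriamycin (the anthracycline doxorubicin) and grown in 50 nM of that drug, given decitabine at 5 nM for 72 hours. Untreated KA was the same subline without decitabine. Treated KS was K562, an established chronic myeloid leukaemia line, with the same decitabine treatment, and untreated KS was K562 without it. Decitabine is a deoxycytidine analogue that traps DNA methyltransferases on DNA. KA is 1 resistant subline, so resistance, the adriamycin in its medium and any other difference between the lines cannot be told apart. The labels do not say what the untreated cells received, or whether replicates were separate cultures, so each p-value reflects only how these arrays spread, which may be technical.

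MYC pairs with MAX and binds the sequence CACGTG (the E-box) to raise genes of growth, ribosome production and nucleotide synthesis. The MXD proteins and MNT compete for MAX and repress the same sites, and MLX forms a parallel branch with MLXIP (MondoA) and MLXIPL (ChREBP), which respond to glucose. MYB keeps immature blood cells in cycle. MIR17HG is a known target of MYC, and its transcript is cut into microRNAs that lower inhibitors of the cell cycle and of survival signalling.

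The mature microRNAs encoded in MIR17HG and in a related cluster inside MCM7 (miR-106b, miR-93 and miR-25) are shown because both loci moved between the groups below. Sequences are RefSeq's, 5′ to 3′, with the seed (bases 2 to 8, which pair with target mRNAs) in capitals. The first group shares the seed AAAGUGC, also used by miR-106b and miR-93.
miR-17-5p: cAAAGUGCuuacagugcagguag
miR-20a-5p: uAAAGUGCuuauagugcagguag
miR-106b-5p: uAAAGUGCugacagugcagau
miR-93-5p: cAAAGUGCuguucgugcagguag
miR-18a-5p has a seed of its own that resembles the first.
miR-18a-5p: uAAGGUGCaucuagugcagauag
miR-19a-3p and miR-19b-3p share the seed GUGCAAA.
miR-19a-3p: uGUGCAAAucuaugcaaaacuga
miR-19b-3p: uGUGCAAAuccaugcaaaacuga
miR-92a-3p shares its seed with miR-25-3p.
miR-92a-3p: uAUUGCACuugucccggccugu
miR-25-3p: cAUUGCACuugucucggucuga

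Decitabine acts at CG dinucleotides, so the promoter windows of the 3 members with the largest decitabine changes in KS are printed with each CG in capitals. Each window runs from 250 bases before to 50 bases after the annotated start (RefSeq, GRCh38.p14), in the gene's direction, and 8 of the 9 members have an entry.
MIR17HG promoter, chr13:91347437-91347736, plus strand: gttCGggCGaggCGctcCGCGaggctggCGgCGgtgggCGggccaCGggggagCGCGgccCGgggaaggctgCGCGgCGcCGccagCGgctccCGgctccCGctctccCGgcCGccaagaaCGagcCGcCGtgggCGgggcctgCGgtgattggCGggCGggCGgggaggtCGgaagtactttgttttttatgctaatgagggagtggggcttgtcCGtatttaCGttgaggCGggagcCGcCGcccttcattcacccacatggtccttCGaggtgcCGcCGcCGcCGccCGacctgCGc
MXD3 promoter, chr5:177312703-177313002, minus strand: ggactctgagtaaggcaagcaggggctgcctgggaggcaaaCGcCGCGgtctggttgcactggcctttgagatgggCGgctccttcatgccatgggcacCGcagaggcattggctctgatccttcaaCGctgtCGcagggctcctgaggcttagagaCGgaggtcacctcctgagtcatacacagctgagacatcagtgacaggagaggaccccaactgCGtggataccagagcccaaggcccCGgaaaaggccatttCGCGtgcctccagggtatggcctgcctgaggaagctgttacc
MXD4 promoter, chr4:2262060-2262359, minus strand: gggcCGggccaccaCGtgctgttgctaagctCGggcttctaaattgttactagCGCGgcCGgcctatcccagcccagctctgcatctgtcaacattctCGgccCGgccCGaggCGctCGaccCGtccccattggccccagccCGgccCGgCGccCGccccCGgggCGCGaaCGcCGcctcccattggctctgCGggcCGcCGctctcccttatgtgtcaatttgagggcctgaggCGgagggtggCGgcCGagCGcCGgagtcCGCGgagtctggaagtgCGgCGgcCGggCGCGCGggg
The MIR17HG window holds 42 CG, a number reached by 5.8% of 35116 promoter windows. The MXD4 window holds 37 (11.3% of windows hold as many) and the MXD3 window 12 (53.1%), against a median of 14 over all windows. The motif CACGTG, which reads the same on both strands, occurs once in the MXD4 window, 238 bases before the start, and once each in the windows of MNT (193 bases before) and MLX (50 bases before). It occurs in 7.26% of all windows. No methylation was measured here, and a match describes these letters only.

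Values are log2 intensities. Array medians lay between 4.96 and 5.01, and 3.39, the highest lower quartile among the arrays, was taken as the bound of background for a group mean. All 9 members exceeded it in every group. Untreated KS replicate 3 stood apart: over 477 genes it lay 31.8% of the way from the other untreated KS arrays to treated KS. Treated KS replicate 1 was likewise shifted by 14.8% in the direction of the untreated arrays, over 418 genes. Member results in KS are also given without untreated replicate 3 wherever that changed a call. All 10 measured erythroid leukaemia markers were above background in each group, with medians of 8.95 in treated KA, 8.83 in untreated KA, 9.04 in treated KS and 8.86 in untreated KS. Most lymphoid (6 of 7), monocyte (6 of 7), epithelial (5 of 6) and fibroblast (4 of 6) markers also exceeded this low bound, which does not show that they were expressed. Group medians were 3.98 to 4.62 for lymphoid, 4.31 to 4.49 for monocyte and 4.47 to 4.60 for fibroblast markers. These lay below the array medians, while epithelial markers had medians of 8.21 to 8.48. Between untreated lines 4 of 10 erythroid markers were higher in KA, against 11.6% of all genes. With decitabine 1 rose in KA, against 9.66% of all genes. In KS 6 rose (3 to 6 with 1 array left out), against 14.6% of all genes. The median changes of these markers were 0.02 in KA and 0.21 in KS. ALAS2, the erythroid enzyme of haem synthesis, rose by 2.46 ± 0.31 (SE) in KS, where untreated replicates 1, 2 and 3 read 7.61, 7.40 and 9.11. Its change in KA was 1.01 ± 0.31 (adjusted p = 0.0464, lost in all 6 fits with 1 KA array left out, up to 0.118 without treated KA replicate 3). Of 7 lymphoid markers 1 was called between untreated lines, where 25.7% of all genes were called. This was CD3D, a T-cell receptor chain, 2.28 ± 0.09 higher in untreated KA than in untreated KS. The median difference of the 7 was -0.03. Of 7 monocyte markers 1 rose in KA, LYZ (1.77 ± 0.34), against 9.66% of all genes. In KS 3 of the 7 rose, LYZ (2.61 ± 0.34) among them, against 14.6% of all genes, with a median change of 0.18 there. For LYZ, untreated KS replicates 1, 2 and 3 read 7.77, 7.86 and 9.57, so the size of both KS rises depends on replicate 3. The part of these markers in the results was not tested. In such bulk RNA, a change in the make-up of the culture and a change in RNA per cell cannot be told apart.

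A gene is called when its adjusted p is under 0.05 in limma's test (Benjamini-Hochberg over all 18417 genes), and changes are on the log2 scale ± SE. Between untreated KA and untreated KS, MYC was higher and MIR17HG lower, 2 of 9 members, where 25.7% of all genes were called. Decitabine in KA raised MXD3 and MXD4 (9.66% of all genes rose) and lowered MYC (4.96% fell), 3 of 9 members, against 14.6% of all genes. Decitabine in KS raised MXD3 and MXD4 and lowered MYC, MLX and MIR17HG, 5 of 9 members, against 30.3% of all genes. Treated KA exceeded treated KS in MYC, MXD1 and MLX, 3 of 9 members, against 27.0% of all genes. The decitabine response differed between KA and KS for MLX and MIR17HG, 2 of 9 members, against 6.74% of all genes. The decitabine comparisons share their arrays with the comparisons between the lines. With 9 members, these shares describe the list and set it apart from no other list.

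Median changes of the 9 members, beside those of all genes, were -0.03 and 0.02 between untreated lines, 0.12 and -0.02 for decitabine in KA and -0.10 and -0.01 for decitabine in KS. The arrays of KA and KS did not overlap without decitabine for 3 members (38.4% of all genes), and with decitabine for 4 (41.5%). Treated and untreated arrays did not overlap for 5 members in KA (35.9% of all genes) and for 6 in KS (40.0%).

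**Figure D1:**
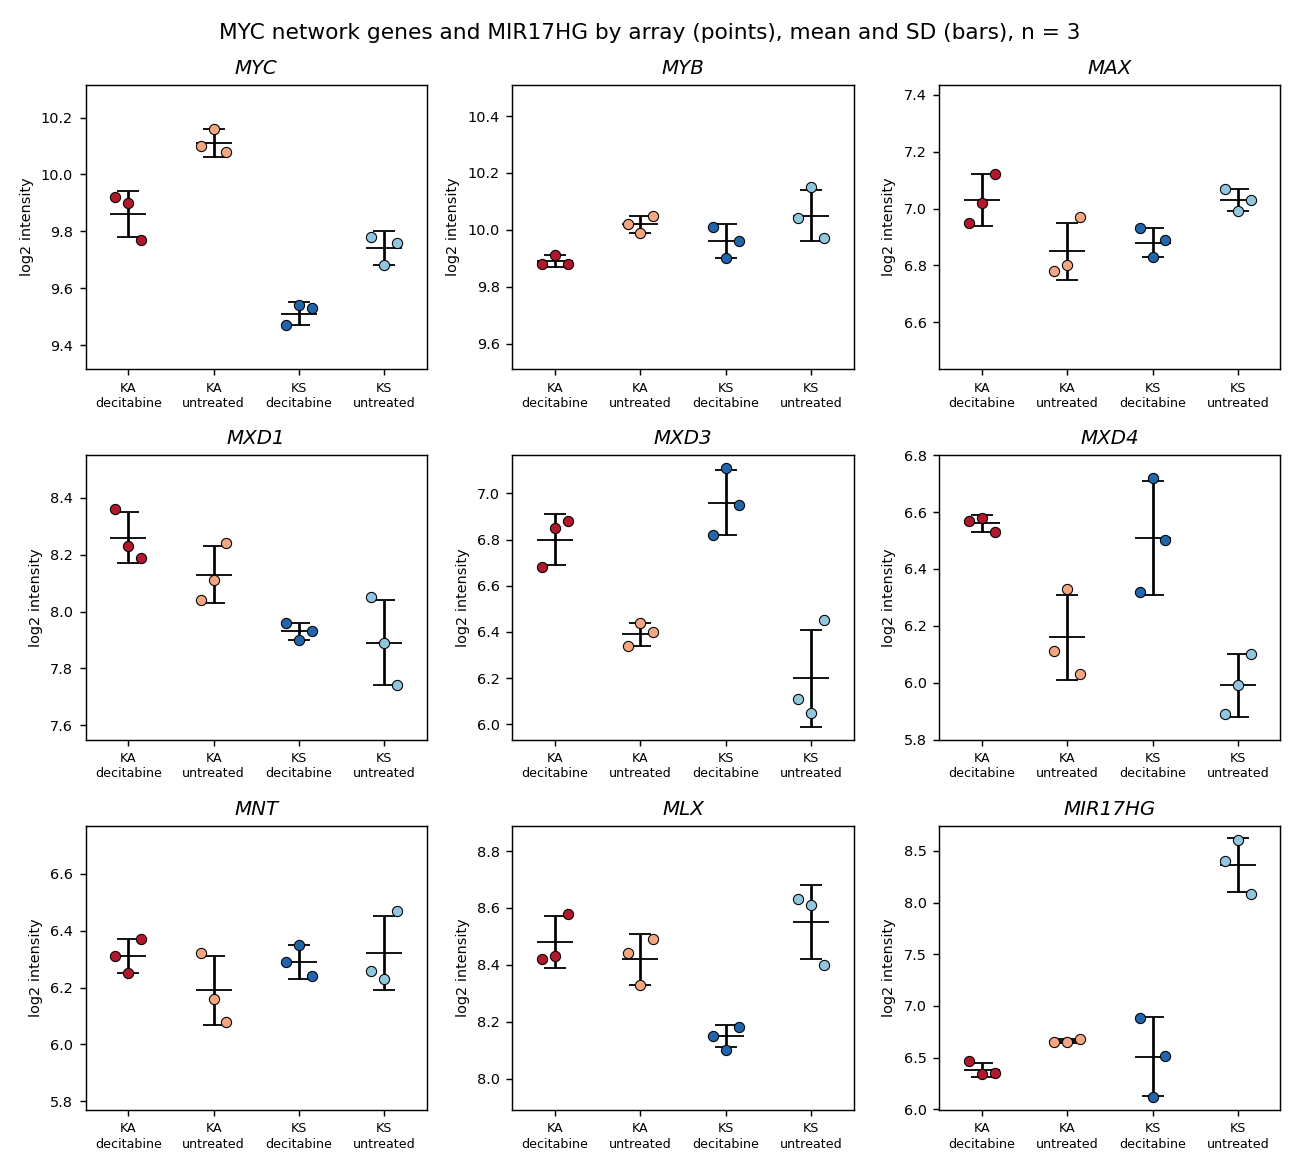
Log2 intensity of each member in each array (points) for treated KA, untreated KA, treated KS and untreated KS, with the mean and SD of 3 arrays (bars). Each panel has its own vertical scale, at least 1 log2 unit tall. MYC is highest in untreated KA and lowest in treated KS, and MIR17HG reads 8.08 to 8.60 in untreated KS and no more than 6.88 elsewhere.

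MYC (chr8:127735434-127742951 in GRCh38.p14) encodes the transcription factor at the centre of the network. It read 9.92, 9.90 and 9.77 in treated KA and 10.10, 10.16 and 10.08 in untreated KA. It read 9.47, 9.54 and 9.53 in treated KS and 9.78, 9.68 and 9.76 in untreated KS. In both lines every treated array lay below every untreated one, and KA lay above KS in both states. Decitabine lowered MYC by 15.9% in KA (-0.25 ± 0.07, adjusted p = 0.0245) and by 14.6% in KS (-0.23 ± 0.07, adjusted p = 0.0195). Untreated KA exceeded untreated KS by 29.5% (0.37 ± 0.07, adjusted p = 0.00101), and treated KA exceeded treated KS by 27.5% (0.35 ± 0.07, adjusted p = 0.00141). The responses of KA and KS to decitabine differed by -0.02 ± 0.09 (adjusted p = 0.921). From lowest to highest the order was treated KS, untreated KS, treated KA and untreated KA. The middle neighbours, untreated KS and treated KA, were not called different (adjusted p = 0.191).

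The differences in MYC between the lines held under every alternative run, while the decitabine calls did not. Quantile normalization ended both (-0.18 in KA, adjusted p = 0.157; -0.13 in KS, adjusted p = 0.268). The KA call was also lost without treated KA replicate 2 (adjusted p = 0.0518) or 3 (0.102), or untreated KA replicate 1 (0.0604) or 2 (0.0976). The KS call was lost without treated KS replicate 1 (adjusted p = 0.0662), without untreated KS replicate 1 (0.0697), without the 2 KS arrays that stood apart (0.105), and in a fit of the KS groups alone (0.0607).

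MYB (chr6:135181308-135219172) was not called in any comparison. It read 9.88, 9.91 and 9.88 in treated KA and 10.02, 9.99 and 10.05 in untreated KA, which do not overlap. It read 10.01, 9.90 and 9.96 in treated KS and 10.04, 10.15 and 9.97 in untreated KS, which do. The change with decitabine was -0.13 ± 0.07 in KA (adjusted p = 0.214) and -0.10 ± 0.07 in KS (adjusted p = 0.337). Untreated KA minus untreated KS was -0.03 ± 0.07. All 4 group means of MYB lay within 0.16, and no neighbours in their order were called different.

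MAX (chr14:65006101-65102695), a partner of MYC, MXD and MNT proteins, was not called either with all arrays weighted equally. It read 6.95, 7.02 and 7.12 in treated KA and 6.78, 6.80 and 6.97 in untreated KA, a change of 0.18 ± 0.07 (adjusted p = 0.125). It read 6.93, 6.83 and 6.89 in treated KS and 7.07, 6.99 and 7.03 in untreated KS, a change of -0.15 ± 0.07 (adjusted p = 0.163). The KA arrays overlapped and the KS arrays did not. The change in KA minus that in KS was 0.33 ± 0.10 (adjusted p = 0.0804). Untreated KA minus untreated KS was -0.18 ± 0.07 (adjusted p = 0.0891). That difference was called without untreated KA replicate 3 (-0.24, adjusted p = 0.0388). With array weights, MAX was called in 3 comparisons: untreated KA minus untreated KS was -0.21 (adjusted p = 0.0304), the change in KA was 0.20 (adjusted p = 0.0346) and the difference between the changes was 0.35 (adjusted p = 0.0379).

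Among the antagonists, MXD3 and MXD4 rose with decitabine in both lines. MXD3 (chr5:177305499-177312752), a MAX-binding repressor, read 6.68, 6.85 and 6.88 in treated KA and 6.34, 6.44 and 6.40 in untreated KA. It read 6.82, 7.11 and 6.95 in treated KS and 6.11, 6.05 and 6.45 in untreated KS. All treated arrays lay above all untreated ones, and the highest untreated KS value was replicate 3. Decitabine raised MXD3 by 33.0% in KA (0.41 ± 0.11, adjusted p = 0.0226) and by 68.7% in KS (0.75 ± 0.11, adjusted p = 0.000171). The KS call held under every alternative. The KA call was lost when any 1 of the 6 KA arrays except treated KA replicate 1 was left out, with adjusted p up to 0.0843 (without treated KA replicate 3). The lines did not differ by a called amount without decitabine (0.19 ± 0.11) or with it (-0.15 ± 0.11). Array weights brought the untreated difference past the threshold (0.27, adjusted p = 0.0328). Without untreated KS replicate 3, MXD3 was higher in untreated KA than in untreated KS (0.31, adjusted p = 0.0282), and its response was smaller in KA than in KS (-0.47, adjusted p = 0.0369). With all arrays that difference of responses was -0.34 ± 0.15 (adjusted p = 0.202).

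MXD4 (chr4:2247432-2262109), a related repressor, read 6.57, 6.58 and 6.53 in treated KA and 6.11, 6.33 and 6.03 in untreated KA. It read 6.32, 6.72 and 6.50 in treated KS and 5.89, 5.99 and 6.10 in untreated KS. The groups overlapped in neither line. The rise was 32.5% in KA (0.41 ± 0.10, adjusted p = 0.0215) and 43.4% in KS (0.52 ± 0.10, adjusted p = 0.00199). The responses differed by -0.11 ± 0.15 (adjusted p = 0.703), and no line difference was called (0.16 ± 0.10 untreated, 0.05 ± 0.10 treated). With array weights the untreated difference was called (0.29, adjusted p = 0.0441), where the most heavily weighted array, untreated KA replicate 2, was the highest of its group (6.33). The KS call held under every alternative. The KA call was lost when any 1 of the 6 KA arrays except untreated KA replicate 2 was left out, with adjusted p up to 0.0772 (without untreated KA replicate 3).

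MXD1 (chr2:69915109-69942945), the founding member of the MXD family, did not change by a called amount with decitabine. It read 8.36, 8.23 and 8.19 in treated KA and 8.04, 8.11 and 8.24 in untreated KA. It read 7.96, 7.90 and 7.93 in treated KS and 8.05, 7.89 and 7.74 in untreated KS. Treated and untreated arrays overlapped in both lines. Treated KA did not overlap treated KS and was 25.4% higher (0.33 ± 0.09, adjusted p = 0.0118). That call was lost without treated KA replicate 1 (0.28, adjusted p = 0.0561). Untreated KA minus untreated KS was 0.24 ± 0.09 (adjusted p = 0.0619), and quantile normalization (0.28, adjusted p = 0.0126), leaving out dim genes (adjusted p = 0.0477), a spread that follows intensity (adjusted p = 0.0218) and leaving out untreated KS replicate 1 (0.31, adjusted p = 0.0229) each brought it past the threshold.

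MNT (chr17:2384073-2401060), the broadly expressed repressor of the network, was not called in any comparison. It read 6.31, 6.25 and 6.37 in treated KA and 6.32, 6.16 and 6.08 in untreated KA. It read 6.29, 6.35 and 6.24 in treated KS and 6.26, 6.23 and 6.47 in untreated KS. The groups overlapped in every comparison, and the 4 means lay within 0.13.

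MLX (chr17:42567100-42573203), the partner of MLXIP and MLXIPL, fell with decitabine in KS. It read 8.42, 8.43 and 8.58 in treated KA and 8.44, 8.33 and 8.49 in untreated KA, which overlap. It read 8.15, 8.10 and 8.18 in treated KS and 8.63, 8.61 and 8.40 in untreated KS. In KS all treated arrays lay below all untreated ones, a fall of 24.2% (-0.40 ± 0.08, adjusted p = 0.00205). In KA the change was 0.06 ± 0.08 (adjusted p = 0.695). The change in KA minus that in KS was 0.46 ± 0.11 (adjusted p = 0.0337). That call was lost in 10 of 12 fits with 1 array left out, all except those without untreated KA replicate 3 or untreated KS replicate 3, with adjusted p up to 0.0903 (without untreated KA replicate 2). Treated KA exceeded treated KS by 25.5% (0.33 ± 0.08, adjusted p = 0.00808), while the untreated lines were not called (-0.13 ± 0.08). Array weights called that untreated difference (-0.22, adjusted p = 0.039), where the most heavily weighted array, untreated KA replicate 2, was the lowest of its group (8.33).

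MIR17HG (chr13:91347687-91354577) had the largest changes of the 9 members. It read 6.47, 6.34 and 6.35 in treated KA and 6.65, 6.65 and 6.68 in untreated KA. It read 6.88, 6.12 and 6.52 in treated KS and 8.40, 8.60 and 8.08 in untreated KS. The 3 untreated KS arrays stood above the other 9, whose ranges lay close together. Decitabine lowered MIR17HG in KS by 72.3% (-1.85 ± 0.16, adjusted p = 8.09e-06), and untreated KA lay below untreated KS by 69.2% (-1.70 ± 0.16, adjusted p = 5.45e-06). In KA the change with decitabine was -0.28 ± 0.16 (adjusted p = 0.291) although the arrays did not overlap. It was called only in a fit of the KA groups alone (adjusted p = 0.0288). The response in KA minus that in KS was 1.58 ± 0.23 (adjusted p = 0.00289), and treated KA minus treated KS was -0.12 ± 0.16 (adjusted p = 0.646). Treated KS was not called different from untreated KA (-0.15 ± 0.16, adjusted p = 0.528). The 3 calls on MIR17HG that involve untreated KS held under every alternative. Without untreated KS replicate 3, whose value was the lowest of its group, they were -1.99 (decitabine in KS), -1.84 (untreated lines) and 1.72 (difference of responses).

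Ordering the 4 groups by level gave 27 neighbouring pairs over the 9 members, of which 6 were called different. Besides those of MYC, they were treated KA above untreated KA for MXD3, treated KS above untreated KA for MXD4 (0.36, adjusted p = 0.0173), treated KS below untreated KA for MLX (-0.27, adjusted p = 0.0189) and untreated KA below untreated KS for MIR17HG. The pairs that cross line and treatment were called for 34.2% of all genes (treated KA against untreated KS) and 34.1% (treated KS against untreated KA).

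**Figure D2:**
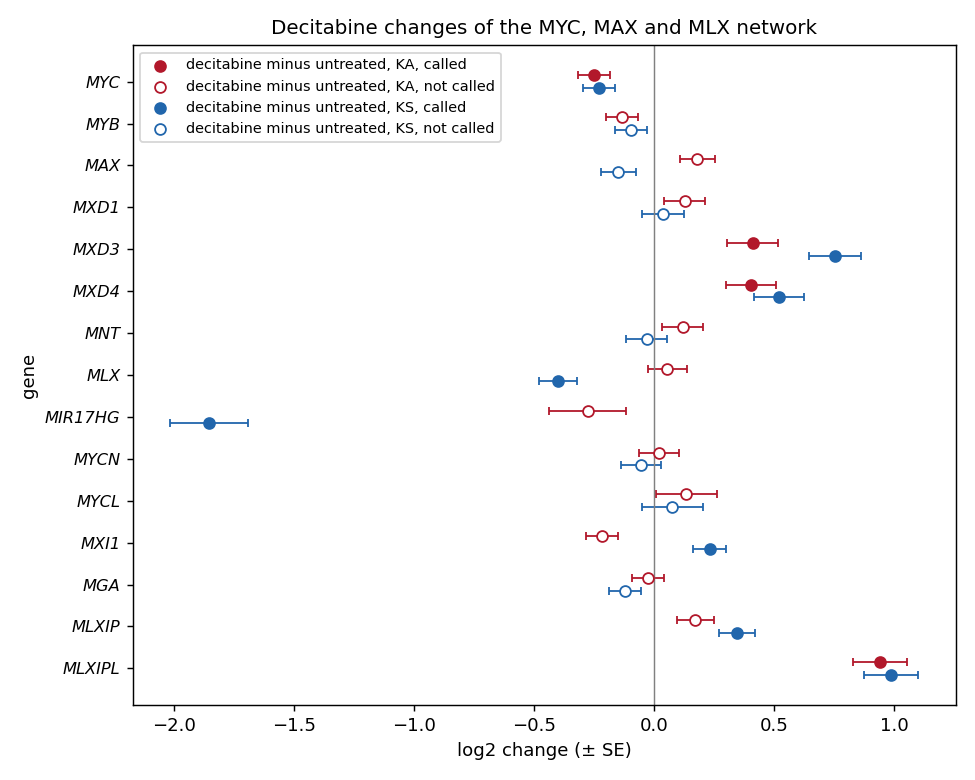
Log2 change with decitabine (treated minus untreated, ± SE) in KA (red) and in KS (blue) for the 9 members and 6 other proteins of the network. Filled points passed the adjusted threshold. MXD3, MXD4 and MLXIPL are filled to the right of 0 in both lines, MYC is filled to the left in both, and MIR17HG and MLX are filled to the left in KS and open in KA.

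Of the 6 other network genes, MLXIPL, the glucose-responsive partner of MLX, rose most. It read 6.08, 6.24 and 6.40 in treated KA and 5.48, 5.10 and 5.31 in untreated KA, a rise of 0.94 ± 0.11 (adjusted p = 0.000291). It read 6.74, 6.79 and 6.57 in treated KS and 5.72, 5.58 and 5.83 in untreated KS, a rise of 0.99 ± 0.11 (adjusted p = 3.34e-05). MLXIP rose by 0.35 ± 0.08 in KS (adjusted p = 0.00352), with a change of 0.17 ± 0.08 in KA (adjusted p = 0.157). MXI1, an MXD-family repressor, was 0.48 ± 0.07 higher in untreated KA than in untreated KS (adjusted p = 0.00018). Its decitabine change was -0.22 ± 0.07 in KA (adjusted p = 0.0501) and 0.23 ± 0.07 in KS (adjusted p = 0.0196). The KA minus KS difference for MXI1 was -0.45 ± 0.10 (adjusted p = 0.0178; 2.14% of all genes were called in that direction), and it was lost without untreated KS replicate 1 (adjusted p = 0.0507). MYCN and MYCL, the MYC paralogues, and MGA, a repressor that binds MAX, were not called in any comparison. MYCN averaged 4.23 ± 0.04 in treated KA, 4.21 ± 0.06 in untreated KA, 4.18 ± 0.12 in treated KS and 4.24 ± 0.12 in untreated KS (SD, n = 3 each).

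Genes known as induced by MYC fell widely with decitabine. Of 26 measured, 13 fell in KA, where 4.96% of all genes fell, and 21 fell and 1 rose in KS, where 15.7% of all genes fell. Their median change was -0.31 in KA and -0.50 in KS, against -0.02 and -0.01 over all genes. The list was chosen with earlier results of these data known, and the shares over all genes include dim genes. With 1 array left out, 8 to 11 fell in KA (8 without treated KA replicate 2 or untreated KA replicate 2) and 19 to 24 in KS (24 without untreated KS replicate 3). Erythroid markers also moved in KS, where 6 of 10 rose and 14.6% of all genes rose. In KA 1 of 10 rose, near the 9.66% of all genes. The part of these markers in the result was not tested. ODC1, the first enzyme of polyamine synthesis, read 10.12, 10.10 and 9.94 in treated KA and 10.47, 10.58 and 10.51 in untreated KA. It read 10.13, 10.02 and 9.89 in treated KS and 10.79, 10.83 and 10.69 in untreated KS. ODC1 fell without overlap in both lines (-0.46 ± 0.08, adjusted p = 0.0025, and -0.76 ± 0.08, adjusted p = 2.15e-05).

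In KA the largest falls of the list were in HSPE1 (-0.82 ± 0.08) and HSPD1 (-0.52 ± 0.08), the mitochondrial chaperonins, which changed by -0.81 ± 0.08 and -0.49 ± 0.08 in KS. In KS the largest were in the ribosome assembly factors MRTO4 (-1.12 ± 0.09) and RRP9 (-1.02 ± 0.11), which changed by -0.42 ± 0.09 and -0.43 ± 0.11 in KA. All 8 of these changes passed the test. CCND2, cyclin D2, changed by -0.12 ± 0.07 in KA (adjusted p = 0.256) and -0.21 ± 0.07 in KS (adjusted p = 0.0243, lost without treated KS replicate 1 at 0.0821 or untreated KS replicate 1). RCL1, a ribosomal RNA processing factor, was the 1 that rose in KS (0.30 ± 0.07, adjusted p = 0.0057). The responses differed for 6 of the 26, all higher in KA than in KS (4.60% of all genes), a number that ran from 2 to 10 with 1 array left out, with 10 without untreated KS replicate 3.

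**Figure D3:**
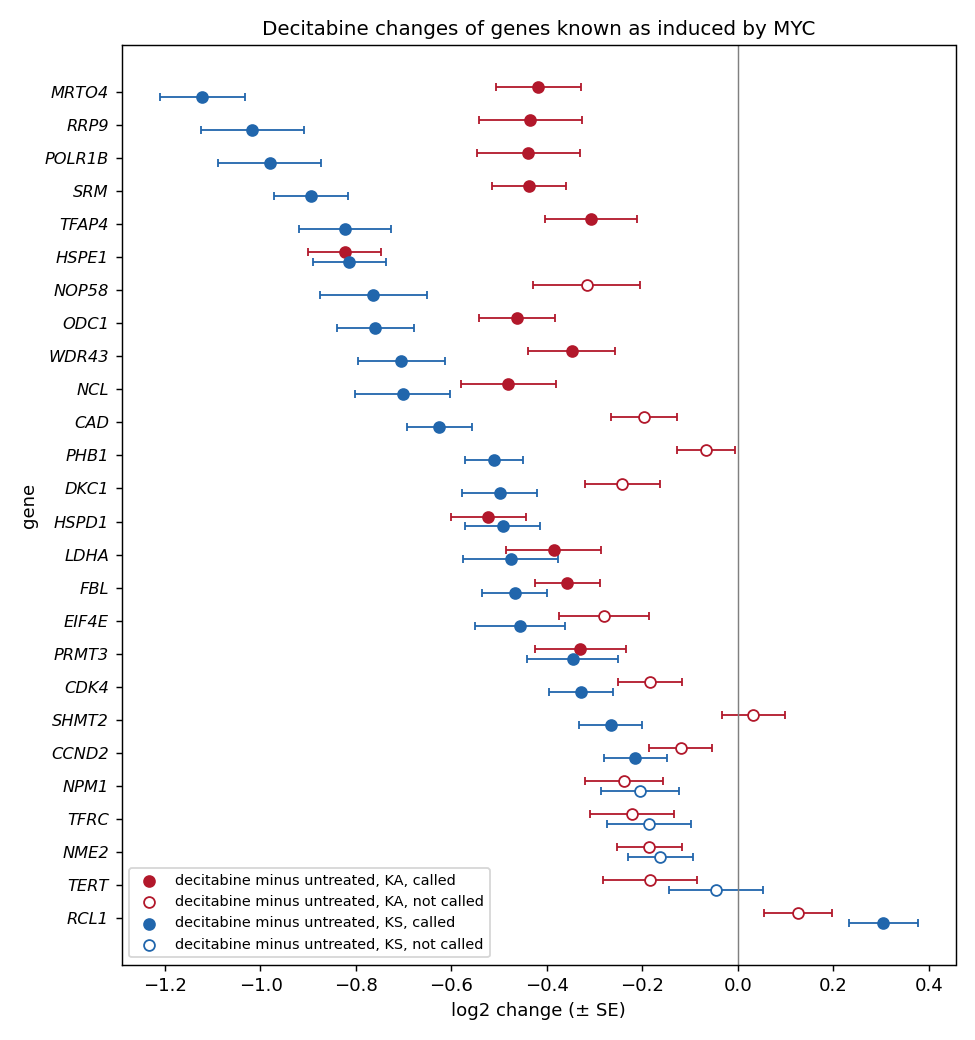
Log2 change with decitabine (treated minus untreated, ± SE) of the 26 measured genes known as induced by MYC, in KA (red) and KS (blue), sorted by the KS value. Filled points passed the adjusted threshold. Most points lie left of 0, and those of KS reach further left at the top of the list, down to -1.12 for MRTO4.

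Without decitabine the same list was mixed between the lines, although MYC itself was higher in KA. In untreated KA 4 of the 26 were higher (11.6% of all genes) and 7 lower (14.1%) than in untreated KS. RCL1 was 0.66 ± 0.07 and PRMT3, an arginine methyltransferase, 0.55 ± 0.10 higher, and MRTO4 differed by -0.58 ± 0.09 and POLR1B, a subunit of RNA polymerase I, by -0.40 ± 0.11. The POLR1B call was lost without untreated KS replicate 1 (adjusted p = 0.0722) or 2. The count of lower genes ran from 2 (without untreated KS replicate 2) to 10 (without untreated KS replicate 3). With decitabine, 8 were higher (15.1% of all genes) and 2 lower (11.9%) in KA than in KS.

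Cofactors that MYC recruits to chromatin fell with decitabine more often than they rose: 3 of 15 fell in KA, where 4.96% of all genes fell, and 8 fell and 1 rose in KS, where 15.7% of all genes fell and 14.6% rose. Their median change was -0.08 in KA and -0.28 in KS, against -0.02 and -0.01 over all genes. KAT5, the acetyltransferase of the NuA4 complex, fell by 0.51 in KA and by 0.55 in KS, and RUVBL1, an ATPase of the same complex, by 0.36 and 0.57. HCFC1, a scaffold that binds MYC, fell by 0.25 in KA and by 0.63 in KS. KAT2A, another acetyltransferase, rose by 0.32 ± 0.07 in KS. Between untreated lines 6 of 15 were higher in KA, among them the chromatin reader BPTF (0.50 ± 0.08), and 3 were lower, among them WDR5, a histone methyltransferase subunit that anchors MYC (-0.37 ± 0.06). Of all genes 11.6% were higher in untreated KA and 14.1% lower. With 1 array left out, 3 to 5 of the cofactors were higher, with 3 without untreated KA replicate 2 or untreated KS replicate 3.

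Of 13 measured enzymes that control MYC protein turnover, 3 rose and 3 fell with decitabine in KA, where 9.66% of all genes rose and 4.96% fell, and 2 rose and 4 fell in KS, where 14.6% rose and 15.7% fell. With 1 array left out, 2 or 3 rose and 1 or 2 fell in KA, and 0 to 2 rose and 2 to 4 fell in KS, where the 2 that fell came without untreated KS replicate 2. SKP2, a ubiquitin ligase subunit that targets MYC, fell by 0.36 in KA and by 0.20 in KS, and untreated KA minus untreated KS was -0.61 ± 0.06 (adjusted p = 8.69e-06). FBXW7, the main ligase subunit that marks MYC for destruction, was 0.44 ± 0.08 higher in untreated KA than in untreated KS. FBXO32, another F-box protein, rose by 1.27 ± 0.12 in KA. Its change in KS was 0.39 ± 0.12 (adjusted p = 0.0262), lost in 5 of 6 fits with 1 KS array left out (adjusted p up to 0.104, without untreated KS replicate 2). USP7, a deubiquitinase, fell by 0.59 in KS. Its change in KA was -0.30 ± 0.07 (adjusted p = 0.015), lost in 3 of 6 fits with 1 KA array left out (adjusted p up to 0.0557, without untreated KA replicate 1). Protein levels were not measured.

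Genes known as repressed by MYC were called in both directions. Of 12 measured, 2 rose and 3 fell with decitabine in KA, where 9.66% of all genes rose and 4.96% fell, and 3 rose and 2 fell in KS, where 14.6% rose and 15.7% fell. Their median change was -0.07 in KA and 0.10 in KS. With 1 array left out, 0 or 1 rose and 2 or 3 fell in KA, and 3 rose and 0 to 2 fell in KS. The change in KA minus that in KS was below 0 for 11 of 12, with a median of -0.16 against -0.00 over all genes. These differences come from the same arrays, so their signs are not independent. Only that of TXNIP was called, 1 of 12, where 2.14% of all genes were called in that direction. Between untreated lines 5 of 12 were higher in KA and 1 lower, against 11.6% and 14.1% of all genes. CDKN1A, the p21 inhibitor of the cell cycle, read 6.37, 6.65 and 6.54 in treated KA and 6.26, 6.25 and 6.26 in untreated KA. It read 5.97, 5.93 and 5.89 in treated KS and 5.64, 5.46 and 5.64 in untreated KS. Its rise was 0.26 ± 0.08 in KA (adjusted p = 0.0443, lost in 5 of 6 fits with 1 KA array left out, up to 0.164 without treated KA replicate 2) and 0.35 ± 0.08 in KS (adjusted p = 0.00481). CDKN1A was 0.67 ± 0.08 higher in untreated KA than in untreated KS, as was NDRG1, a stress-response protein (1.19 ± 0.11). TXNIP, an inhibitor of thioredoxin and a known target of MLX complexes, fell by 0.88 in KA, where MLX was not called. Its change in KS was 0.14 ± 0.06 (adjusted p = 0.125), where MLX fell. TXNIP differed by -2.27 ± 0.06 between untreated KA and untreated KS (adjusted p = 5.27e-11).

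Around MYB, a list of 10 measured genes held its relatives, MuvB core subunits and the transcription factors FOXM1, E2F4 and TFDP1. Of these 10, 1 rose in KA, where 9.66% of all genes rose, and 3 fell in KS, where 15.7% fell. LIN37, a MuvB subunit, rose by 0.45 ± 0.08 in KA, and LIN52, another, fell by 0.32 in KS, as did TFDP1, the E2F partner, by 0.26. MYBL2, the cell cycle relative of MYB, was not called with decitabine (0.08 ± 0.06 in KA, 0.16 ± 0.06 in KS). It was lower in treated KA than in treated KS (-0.23 ± 0.06, adjusted p = 0.0103). Of 12 MYB partners and targets, 3 rose in KA, and 3 rose and 2 fell in KS, where 14.6% of all genes rose and 15.7% fell. Between untreated lines 3 of the 12 were higher in KA and 5 lower, against 11.6% and 14.1% of all genes. KIT, the stem cell factor receptor and a known MYB target, read 6.50, 6.45 and 6.48 in treated KA and 5.35, 5.50 and 5.43 in untreated KA. It read 7.58, 7.80 and 7.90 in treated KS and 6.16, 5.82 and 6.61 in untreated KS. KIT rose by 1.05 ± 0.15 in KA and by 1.56 ± 0.15 in KS, while MYB was not called in either line. Between untreated lines KIT was called lower in KA (mean 5.43) than in KS (mean 6.20).

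Of 15 listed microRNA genes of the 17-92 cluster and its paralogues, 6 had a row of their own. All of these are paralogues on chromosome X or 7, so no microRNA gene inside MIR17HG was measured by itself. Only MIR106B, MIR93 and MIR25 were above background. All 3 lie inside MCM7 on chromosome 7, and the files do not say which transcript such a row detected. Like MIR17HG, they were highest in untreated KS. MIR106B read 4.70, 4.70 and 4.73 in treated KA, 5.27, 4.83 and 4.75 in untreated KA, 5.37, 5.10 and 4.80 in treated KS, and 6.11, 5.87 and 5.45 in untreated KS. MIR93 read 4.19, 4.44 and 4.10 in treated KA, 3.98, 4.35 and 3.91 in untreated KA, 4.57, 4.12 and 4.41 in treated KS, and 5.09, 5.02 and 4.66 in untreated KS. MIR25 read 5.86, 6.08 and 5.80 in treated KA, 6.18, 6.20 and 6.16 in untreated KA, 6.21, 6.12 and 6.07 in treated KS, and 6.96, 6.78 and 6.59 in untreated KS. In each of the 3, every untreated KS array lay above every array of the other groups.

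Untreated KA minus untreated KS was -0.86 ± 0.18 for MIR106B (adjusted p = 0.0026), -0.84 ± 0.15 for MIR93 (adjusted p = 0.00108) and -0.60 ± 0.10 for MIR25 (adjusted p = 0.00055). Decitabine in KS changed them by -0.73 ± 0.18 (adjusted p = 0.00686), -0.55 ± 0.15 (adjusted p = 0.014) and -0.64 ± 0.10 (adjusted p = 0.00028). The MIR93 call in KS was lost in 3 of 6 fits with 1 KS array left out (treated KS replicate 2, at adjusted p = 0.0674, or untreated KS replicate 1 or 2). In KA decitabine changes were -0.24 ± 0.18, 0.16 ± 0.15 and -0.27 ± 0.10, not called. The differences of responses, 0.48 ± 0.25, 0.72 ± 0.22 and 0.38 ± 0.14, were not called either (adjusted p = 0.272, 0.0661 and 0.128). MIR106A, MIR19B2 and MIR92A2 were not shown to exceed background in any group. Of all 6 rows, 5 were called lower in untreated KA than in untreated KS (14.1% of all genes). With decitabine in KS 4 of the 6 fell (15.7%), so both counts include rows below background. With 1 array left out, 2 to 4 fell in KS. For the difference of responses 0 of the 6 were called with all arrays, where 4.60% of all genes were called higher. Without untreated KS replicate 3 it was 2 of the 6, and without both KS arrays that stood apart 3, all higher in KA than in KS. MIR19B2 averaged 2.31 in untreated KS and at most 1.94 elsewhere, and MIR92A2 2.08 and at most 1.81. MIR106A was highest in treated KA (1.57, against 1.48 in untreated KS). The pattern was thus not confined to rows above background, and its cause was not tested. MCM7, a replication helicase subunit named here after its values were seen, ran differently between the lines: it was 0.34 ± 0.07 higher in untreated KA than in untreated KS (adjusted p = 0.00228), and decitabine lowered it in KS (-0.39 ± 0.07, adjusted p = 0.000759).

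**Figure D4:**
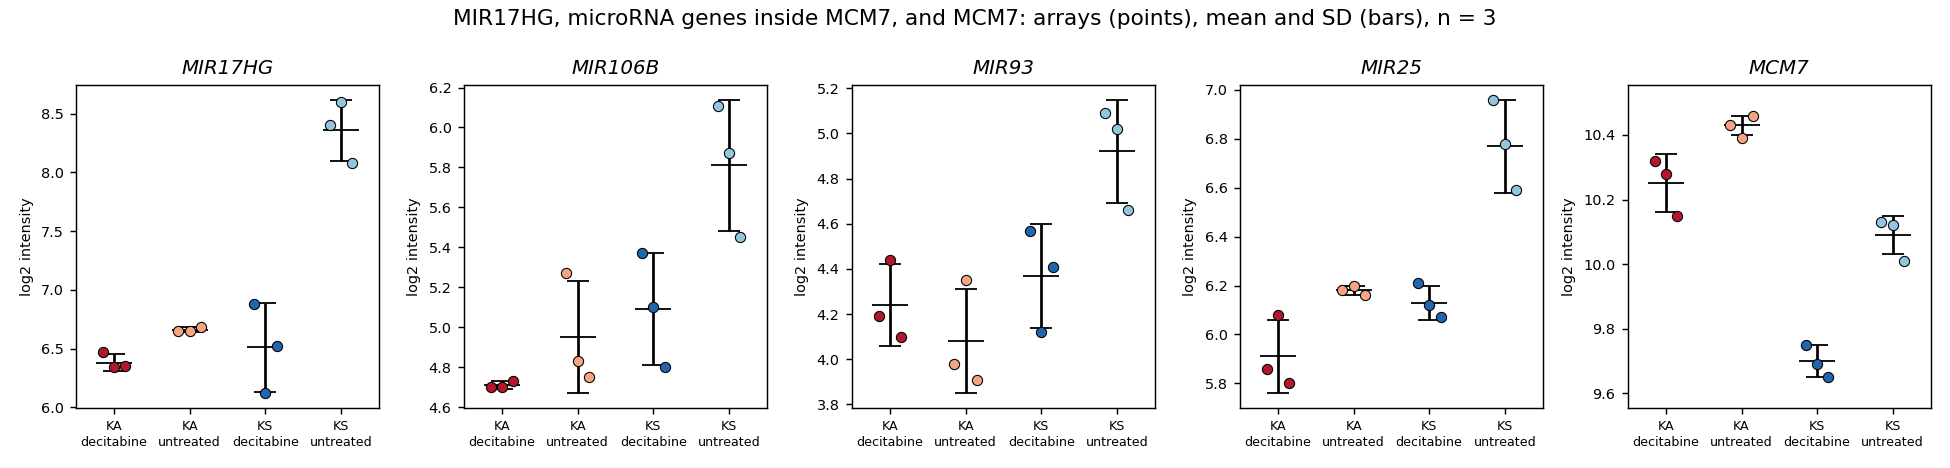
Log2 intensity by array (points), with the mean and SD of 3 arrays (bars), of MIR17HG, MIR106B, MIR93, MIR25 and MCM7 in treated KA, untreated KA, treated KS and untreated KS. MIR17HG and the 3 microRNA genes, which lie together inside MCM7, are highest in untreated KS, while MCM7 is highest in untreated KA. Each panel has its own vertical scale.

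Genes known as targets of the 17-92 microRNAs were described beside their host. Of 17 measured, 4 rose and 1 fell with decitabine in KA, where MIR17HG was not called and where 9.66% of all genes rose and 4.96% fell. With 1 array left out, 2 or 3 rose and 0 fell there. In KS, where it fell, 7 rose and 2 fell, against 14.6% of all genes that rose there and 15.7% that fell. Their median change was 0.10 in KA and -0.03 in KS, against -0.02 and -0.01 over all genes. BCL2L11 (BIM, which promotes cell death) read 7.01, 6.99 and 6.92 in treated KA and 6.38, 6.28 and 6.41 in untreated KA. It read 7.10, 7.24 and 7.33 in treated KS and 6.37, 6.39 and 6.53 in untreated KS. BCL2L11 thus rose without overlap in both lines, by 0.62 ± 0.08 (adjusted p = 0.000386) and 0.80 ± 0.08 (adjusted p = 1.35e-05). RBL2, a retinoblastoma relative, rose by 0.51 ± 0.08 in KS. Between untreated lines, where MIR17HG was lower in KA, 3 of the 17 were higher and 2 lower in KA, against 11.6% and 14.1% of all genes. CDKN1A, which the list shares with the MYC-repressed genes, and HIPK3, a kinase (0.58 ± 0.07), were higher, and CCND1, cyclin D1, was lower (-0.83 ± 0.10). POU5F1B, near MYC, and GPC5, beside MIR17HG, were not called in any comparison.

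Genes whose values ran most like a member's over the 12 arrays were listed from 4960 genes whose highest and lowest group means differed by at least 0.5. For MYC these were LAS1L (Pearson r = 0.979), CCDC71L (0.963) and FAM86JP (0.958). For MYB they were TOMM22 (0.936), HNRNPD (0.927) and SRSF1 (0.907). For MXD4 they were MAN2B2 (0.956), STK10 (0.954) and PTPN6 (0.946), and for MIR17HG BRMS1 (0.980), FOSL1 (0.980) and LSG1 (0.979). The 12 arrays form 4 groups, so these values mostly reflect 4 group means, and they are a description.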

How the data were processed

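Each array's RNA was extracted with Trizol and labelled as biotin cRNA, per the labels' protocols. The deposited values are log2 intensities made by the authors, and the steps of background correction, summarization and normalization behind them are not given in the sources used for this work. Of 33297 rows, 19460 carry 1 gene symbol per the platform annotation, 1754 several and 12083 none. Symbols were updated through RefSeq by Entrez identifier (19429 matched). The brightest row stood for each of 18417 genes (769 had several), and each member had 1 row.

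One limma model (version 3.58.1, under R 4.3.3) estimated the 4 group means from all 12 arrays (8 residual and 4.71 prior degrees of freedom) with Benjamini-Hochberg adjustment over all genes. The fit was tested on simulated data. The members and all gene lists were chosen with earlier results of these data known. Beyond the 9 members, named genes were drawn from the 2 called genes of each list with the largest non-overlapping change per direction, MYCN, MYCL, MXI1, MGA, MLXIP, MLXIPL, CDKN1A, CCND2, ODC1, MYBL2, the microRNA genes and the likeness lists. Alternatives changed the scaling, the dim-gene filter, the row per gene, the spread model, array weights, the groups in the fit, the replicate block and each array. The number of arrays limits the precision. The labels do not state whether replicate numbers pair arrays. Deviations of same-numbered arrays correlated at -0.26 to 0.19, which with 3 arrays per group cannot settle it. Figures were drawn with matplotlib 3.10.9.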

Additional observations from a re-analysis of the deposited data

Results flagged for a closer look

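The responses of the lines to decitabine differed, by the test of the difference itself, for 2 of the 9 members, against 6.74% of all genes. The other genes given here were named in part because this difference was called, so their number says nothing about their lists. Values are the change in KA minus the change in KS on the log2 scale. Among the members, MIR17HG differed by 1.58 (a change of -0.28 in KA and -1.85 in KS), and MLX by 0.46 (0.06 in KA and -0.40 in KS). MXI1, an MXD-family repressor, differed by -0.45. Of the cofactors, EP400, a chromatin remodeller, differed by 0.42 and HCFC1 by 0.38.

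Of the turnover enzymes, FBXO32 differed by 0.88 and PLK1, a mitotic kinase, by 0.45. Of the genes known as induced by MYC, MRTO4 differed by 0.70 and RRP9 by 0.58, and of those known as repressed, TXNIP by -1.02. Around MYB, LIN52 differed by 0.39, MEN1 (menin, a scaffold that binds MYB's partner KMT2A) by 0.46, CCNB1 (cyclin B1) by 0.36 and GFI1 (a transcriptional repressor) by -0.56. The microRNA target THBS1 (thrombospondin) differed by 1.0 and the erythroid marker HBZ (an embryonic globin) by -0.53. The calls on MIR17HG, FBXO32, MRTO4, TXNIP and HBZ held with any 1 of the 12 arrays left out. The call on MXI1 was lost without 1 array, that on GFI1 without 4, those on EP400 and PLK1 without 5, on MEN1 without 6, on THBS1 without 7 and on HCFC1 without 8. Those on MLX, RRP9 and LIN52 were lost without 10 and that on CCNB1 without 11, and the adjusted p reached 0.105 for CCNB1 without treated KA replicate 1.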

How the results depend on the processing

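Under 21 settings, 672 of 720 member results kept their call or its absence, 32 lost a call, 16 gained one and 0 reversed. The 672 pool calls with absences of a call, so they do not measure how steady the calls were. Array weights called 6 members between untreated lines, against 2, and 4417 of all genes for decitabine in KA, against 2694. For the difference of responses, where 2 members and 1241 genes were called, array weights called 2288 genes, an intensity trend with robust spread 1918, and leaving out the 2 KS arrays that stand apart (chosen after seeing the data) 2035. With the replicate block it called 1 member, MIR17HG, and 778 genes, and MLX had an adjusted p of 0.0648. The labels do not state whether the replicate numbers pair the arrays. With 1 array left out, members called for decitabine in KA ran from 0 to 2 (3 with all arrays) and genes from 1653 to 2002. For the difference of responses members ran from 1 to 3 and genes from 564 to 2049. Of 27 neighbouring pairs of group levels, 6 were called different, and 2 to 7 with 1 array left out. Fewer arrays leave fewer residual degrees of freedom; beyond this, the cause was not tested.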
